A study of Mus musculus with 2 samples.

Results

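The genes described here are 5 mast cell protease genes, Cpa3, Cma1, Tpsb2, Tpsab1 and Mcpt4, of 11691 genes in the UMI table. They were picked by name as the proteases of mast cells in general and of connective tissue mast cells, and all 5 had UMIs in both libraries. The study used single-cell RNA sequencing to set blood cells that develop in cultured embryo explants (Em-Ex) beside those of cultured yolk sac explants (YS-Ex). Embryos and yolk sacs of C57/BL6 mice were separated at E8.5, at 5 to 7 somite pairs, and kept at the air-liquid interface for 10 days (9 to 10 days in the labels' general protocol) with SCF, IL-3 and FLT3 Ligand, each at 100 ng/ml. From the dissociated explants, CD41- cells that were positive for CD31, CD45 and c-Kit were collected by flow cytometry, and each tissue gave 1 library. Each library held cells of many explants with no label for the explant of a cell, so the tissue of origin and the library cannot be told apart, and no test between them was run. Where a pair of values carries no names, the first is Em-Ex and the second YS-Ex.

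Mast cells store proteases in secretory granules, bound to the proteoglycan serglycin, and release them when the cell is activated. Cpa3 encodes mast cell carboxypeptidase A, which mast cells make from early in their development. Cma1 and Mcpt4 encode chymases, and Tpsb2 and Tpsab1 encode tryptases, the serine proteases that are typical of mast cells in connective tissue such as skin and peritoneum. Mast cells of mucosal surfaces are known for Mcpt1 and Mcpt2 instead. C57BL/6 mice are known to lack the Tpsab1 protein.

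After cells with few or very many genes or a high mitochondrial share had been removed, 3071 Em-Ex cells held 42752370 UMIs and 2087 YS-Ex cells held 27031627 UMIs. A cell was called Cpa3-high at 40 or more Cpa3 UMIs per 10,000 UMIs of that cell. The Cpa3-high cells numbered 2200 in Em-Ex, or 71.6% (exact 95% interval 70.0 to 73.2), and 1946 in YS-Ex, or 93.2% (92.1 to 94.3). Between 30 and 50 Cpa3 UMIs per 10,000, where a small shift would move a cell across the limit, lay 284 Em-Ex and 87 YS-Ex cells. Cpa3-high cells had median depths of 11246 and 11809 UMIs, against 16935 and 10227 UMIs in the other cells. Intervals here and below cover counting error only, since cells of 1 library are not replicates.

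The Cpa3-high cells carried the other mast cell markers. Kit, Fcer1a, Ms4a2, Hdc, Il1rl1 and Gata2 were all above 0 in both libraries, and together reached 4183 and 4804 CPM, which is the number of UMIs per 1000000 UMIs of the group of cells. Kit, the SCF receptor, stood at 340 and 993 CPM. Fcer1a, the IgE-binding chain of the IgE receptor and a defining marker, was low, at 18.3 and 18.9 CPM. Ms4a2 stood at 58.5 and 67.3 CPM, and the median cell had no UMI of either gene in both libraries. Of the lists for other lineages that are reported here, the markers summed to 50.8 and 20.8 CPM for macrophages, 13.2 and 2.85 CPM for neutrophil progenitors, 14.8 and 11.9 CPM for megakaryocytes and 0.694 and 0 CPM for stromal cells. The basophil list (Mcpt8, Prss34 and Cd200r3) reached 574 and 372 CPM, of which Cd200r3 gave 434 and 316 CPM. The part of these other lineages in the results below was not tested.

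The 5 genes lie at 3 places in the mouse genome (mm10, GENCODE annotation). Cpa3 spans chr3:20215620-20242181 on the minus strand. Cma1 at chr14:55941451-55944675 and Mcpt4 at chr14:56059629-56062313 are 114953 bases apart on the minus strand of chromosome 14, with Mcpt1 and Mcpt2 between them. Tpsb2 at chr17:25366305-25369098 on the plus strand and Tpsab1 at chr17:25343245-25345562 on the minus strand are 20742 bases apart. Tpsg1, a further tryptase gene, begins 174 bases after the end of Tpsb2 on the same strand. GENCODE lists Tpsab1 as protein coding, whereas RefSeq lists it as a transcribed pseudogene.

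Similar sequence can move reads from one member to another, so the transcripts were aligned. Tpsb2 and Tpsab1 shared 74.0% of aligned bases, and Cma1 and Mcpt4 shared 67.7%. Mcpt4 was closer to the mucosal proteases, with 85.2% to Mcpt1 and 78.7% to Mcpt2. None of these pairs shared an identical run of 60 bases.

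Nearly all Cpa3-high cells also had Cma1, while 29.3% of them in Em-Ex and 21.5% in YS-Ex had Mcpt4 at 10 or more UMIs per 10,000, so the sequences before these 3 genes are shown. RefSeq promoter sequence (GRCm38.p6) was at hand for 3 of the 5 genes, Cpa3, Cma1 and Mcpt4. Each line below gives the gene's own strand from 250 to 31 bases before its start, at chr3:20242212-20242431, chr14:55944706-55944925 and chr14:56062341-56062560. Capitals mark GATAA, the core bound by GATA factors such as GATA2, on either strand (TTATC on the other). They also mark CANNTG, the general E-box core.
Cpa3: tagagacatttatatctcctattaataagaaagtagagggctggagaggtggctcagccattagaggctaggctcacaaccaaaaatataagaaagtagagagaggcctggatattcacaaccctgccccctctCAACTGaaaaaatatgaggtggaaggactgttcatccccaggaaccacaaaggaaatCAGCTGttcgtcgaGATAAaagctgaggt
Cma1: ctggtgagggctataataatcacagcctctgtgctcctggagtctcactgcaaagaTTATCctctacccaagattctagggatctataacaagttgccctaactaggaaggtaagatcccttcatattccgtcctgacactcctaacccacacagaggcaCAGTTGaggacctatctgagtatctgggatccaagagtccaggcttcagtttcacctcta
Mcpt4: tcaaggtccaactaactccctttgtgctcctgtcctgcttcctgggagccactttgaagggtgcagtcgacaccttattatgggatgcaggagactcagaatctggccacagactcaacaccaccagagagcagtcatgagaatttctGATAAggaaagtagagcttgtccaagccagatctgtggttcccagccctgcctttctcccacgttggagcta
Each of these promoters held 1 GATAA match, at -45 in Cpa3, at -194 in Cma1 as TTATC and at -102 in Mcpt4. Cpa3 held 2 E-box cores, Cma1 held 1 and Mcpt4 held none. The E-box forms CATGTG and CACGTG, which 11.1% and 5.01% of mouse promoters held, were in none of the 3 sequences. Of 32524 mouse promoters of the same length, 20.5% held GATAA and 62.2% held CANNTG on either strand, and no match in the 3 sequences overlapped another. The matches describe the letters only.

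Across all cells the 5 protease genes took 2.62% of all UMIs in Em-Ex and 3.97% in YS-Ex. In a single cell the share reached 17.9% in Em-Ex and 17.4% in YS-Ex. UMIs count captured transcript ends, 1 per molecule, so levels of different genes were compared as molecules without a correction for length. Cma1 was the most abundant of all 11691 genes in Em-Ex, at 11726 CPM, and ranked 3 in YS-Ex, at 14422 CPM. Cpa3 ranked 5 in Em-Ex, at 8656 CPM, and 2 in YS-Ex, at 16367 CPM. Tpsb2 ranked 36 in Em-Ex, at 4861 CPM, and 7 in YS-Ex, at 7926 CPM. The remaining members were far less abundant, with Mcpt4 at 737 and 886 CPM, and Tpsab1 at 199 and 103 CPM. The order of the members below the leading pair was thus Tpsb2, Mcpt4 and Tpsab1 in both libraries, while Cma1 stood above Cpa3 in Em-Ex and below it in YS-Ex.

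Among the Cpa3-high cells the same order was found, and the cells differed widely from each other. Here the 5 genes took 3.83% of UMIs in Em-Ex and 4.18% in YS-Ex, and Cpa3, Cma1 and Tpsb2 gave 34%, 44.2% and 18.5% of that sum in Em-Ex and 41.6%, 36.1% and 19.9% in YS-Ex. Cpa3 chose these cells, so its values are a description. Its level in Em-Ex cells ran from 47.9 UMIs per 10,000 at the 5th percentile over a median of 114 to 309 at the 95th percentile, and in YS-Ex cells from 59.9 over 162 to 350.

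The chymase Cma1 was found in nearly every Cpa3-high cell, over a wide range. Its 5th percentile, median and 95th percentile were 7.15, 156 and 455 UMIs per 10,000 in Em-Ex and 7.22, 147 and 395 in YS-Ex. The tryptase Tpsb2 spanned a wider range toward low values, with 0.585, 52.9 and 249 UMIs per 10,000 in Em-Ex and 1.38, 74.9 and 254 in YS-Ex. For both genes the ranges from the 5th to the 95th percentile overlapped over most of their length.

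Tpsab1 and Mcpt4 behaved differently from the 3 abundant proteases in that many Cpa3-high cells had no UMI of them. The median of Tpsab1 was 0.882 UMIs per 10,000 in Em-Ex and 0 in YS-Ex, and its 95th percentiles were 11.3 and 6.19. Mcpt4 had a median of 1.02 in Em-Ex and 0 in YS-Ex, but 95th percentiles of 66.7 and 73.0, so that a minority of cells held most of its UMIs. At a common depth of 2000 UMIs per cell, the variance over cells was 9.28 times the mean for Mcpt4 in Em-Ex and 13.6 times in YS-Ex. For Tpsab1 it was 2.03 and 1.94 times. For Cpa3, Cma1 and Tpsb2 it was 11.4, 22.2 and 19.9 times in Em-Ex and 10.6, 18.8 and 15.3 times in YS-Ex. This measure can grow with the mean, which was 2.67 and 2.32 UMIs for Mcpt4 and 0.560 and 0.241 for Tpsab1, so it does not set Mcpt4 apart.

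**Figure D1:**
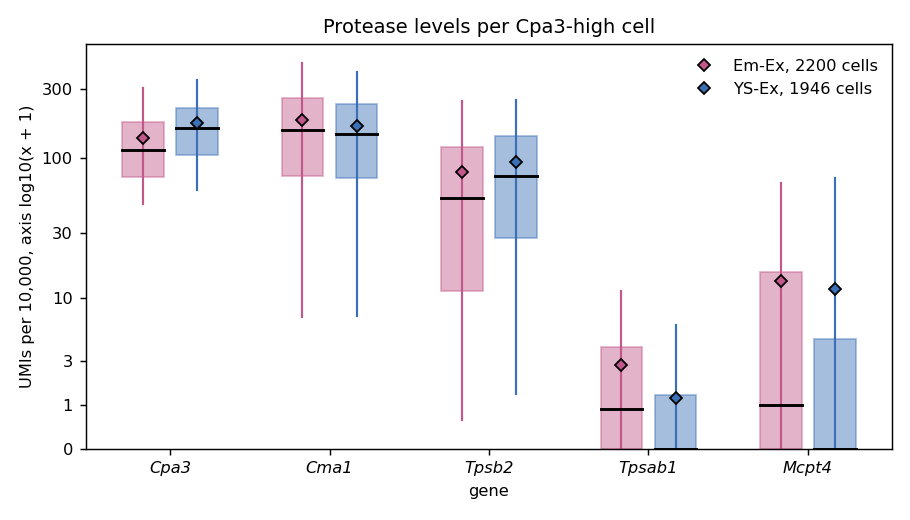
Level of each protease gene per Cpa3-high cell, in UMIs per 10,000 on a log10(x + 1) axis, for 2200 Em-Ex and 1946 YS-Ex cells. Boxes span the quartiles with the median as a black line, thin lines run from the 5th to the 95th percentile, and diamonds are means; Mcpt4 has a median of 1.02 in Em-Ex and 0 in YS-Ex but 95th percentiles of 66.7 and 73.0.

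Detection was set beside that in cells with under 10 Cpa3 UMIs per 10,000, of which there were 564 in Em-Ex (median 19367 UMIs) and 50 in YS-Ex (median 11423 UMIs). Their 6 mast cell markers summed to 158 and 703 CPM, so they were poor in mast cell RNA as a class. With each cell thinned to 2000 UMIs, Tpsb2 was detected in 85.2% of Em-Ex and 91.3% of YS-Ex Cpa3-high cells, against 22.5% and 36% of the cells low in Cpa3. Cma1 was detected in 97.2% and 97.5%, against 38.8% and 54%. Mcpt4 was detected in 41.1% and 28.2%, against 2.66% and 10%. Tpsab1 was detected in 30.8% and 15.5%, against 2.13% and 8%. All 4 genes were thus detected in a larger share of Cpa3-high cells. For Tpsab1 in YS-Ex the exact 95% interval of the 50 cells low in Cpa3, 2.22% to 19.2%, held the share of the Cpa3-high cells, so these shares cannot be told apart with 50 cells, while its pooled level was 105 against 9.57 CPM. Without thinning, 56.7% of Em-Ex and 36.2% of YS-Ex Cpa3-high cells had a Tpsab1 UMI, and 61.2% and 42.8% had an Mcpt4 UMI, against 14.4% and 12% and against 19.3% and 18% of the cells low in Cpa3.

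Cma1 and Tpsb2 were higher in cells with more Cpa3, while Tpsab1 and Mcpt4 had no such common course in the libraries. From 40 to 100 Cpa3 UMIs per 10,000 up to 200 or more, Cma1 went from 11479 to 27786 CPM in Em-Ex and from 9817 to 19825 CPM in YS-Ex. Over the same ranges Tpsb2 went from 4484 to 11768 CPM in Em-Ex and from 5006 to 11574 CPM in YS-Ex. Tpsab1 stood at 244 and 272 CPM in Em-Ex and at 121 and 102 CPM in YS-Ex at these ends, and Mcpt4 at 914 and 1156 CPM in Em-Ex and at 1056 and 822 CPM in YS-Ex. The median depth went from 12192 to 9969 UMIs per cell over these ranges in Em-Ex and from 11224.5 to 11840.5 in YS-Ex.

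Just under the limit, in cells with 10 to 40 Cpa3 UMIs per 10,000, the proteases were already well above the level of the lowest cells. Of these cells, 307 were in Em-Ex and 91 in YS-Ex. Cma1 stood at 7634 and 7310 CPM, against 367 and 946 CPM in cells with under 10. Of the 50 such YS-Ex cells, 18% reached 10 Cma1 UMIs per 10,000 and the median cell had 3.08, so a few cells carried the pooled 946 CPM. Mcpt4 reached 1398 CPM (1328 to 1471) in the YS-Ex cells between 10 and 40, the highest of its 5 ranges in that library, and 816 CPM (789 to 843) in those of Em-Ex. The median of these 91 YS-Ex cells was 0, and 31.9% (22.5 to 42.5) reached 10 Mcpt4 UMIs per 10,000, so a minority carried the pooled level. That interval held the 26.5% of the YS-Ex cells between 40 and 100.

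**Figure D2:**
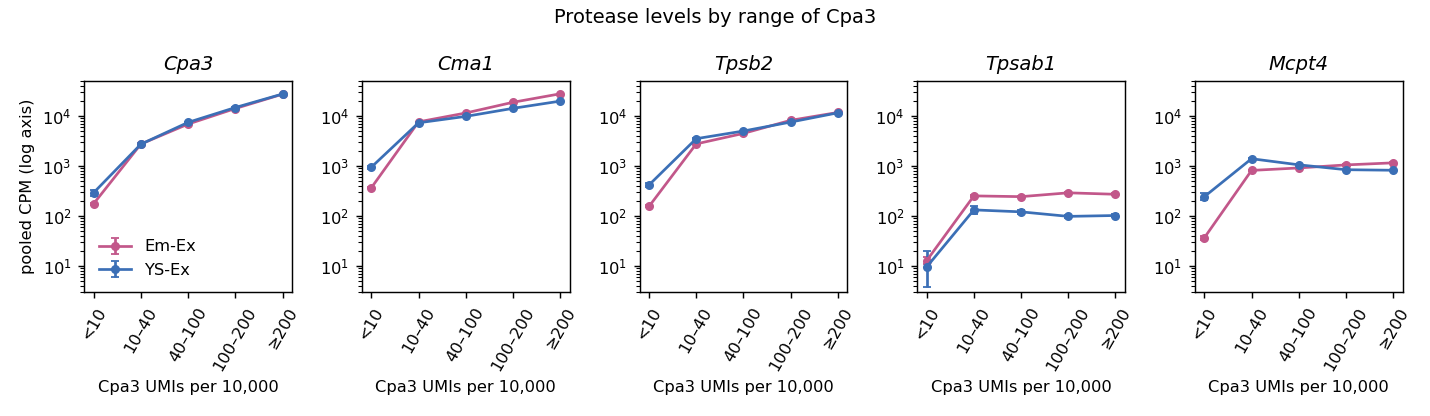
Pooled level of each gene in CPM (log axis) in cells grouped by Cpa3 UMIs per 10,000, for Em-Ex and YS-Ex, with exact Poisson 95% intervals that are mostly smaller than the points. Cma1 and Tpsb2 climb with Cpa3 to 27786 and 11768 CPM in Em-Ex, while Mcpt4 goes from 816 to 1156 CPM in Em-Ex and from 1398 to 822 CPM in YS-Ex between 10 to 40 and 200 or more Cpa3 UMIs per 10,000.

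Within Cpa3-high cells, Tpsab1 had the ratio furthest from 1 among the 5 genes. It stood at 266 and 105 CPM, a ratio of 2.54 (2.43 to 2.66). Mcpt4, at 1006 and 883 CPM, and Cma1, at 16943 and 15110 CPM, had ratios of 1.14 (1.12 to 1.16) and 1.12 (1.12 to 1.13). Tpsb2, at 7087 and 8328 CPM, had a ratio of 0.851 (0.846 to 0.856), and Cpa3, at 13007 and 17404 CPM, a ratio of 0.747 (0.744 to 0.751). Of 6998 genes with at least 10 CPM in at least 1 library, 8.49% were 1.5-fold or more higher in Em-Ex and 24.2% were 1.5-fold or more lower. Past that size lay 1 of the 5 proteases, Tpsab1, on the higher side and none on the lower side.

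The ratios of Cma1 and Mcpt4 were close to that of a typical well-measured gene. The median ratio of Em-Ex to YS-Ex over 1996 genes with at least 50 CPM in both libraries was 1.09, a shift of 0.12 on the log2 scale. Relative to that median, the ratio was 1.03 for Cma1, 1.04 for Mcpt4, 2.33 for Tpsab1, 0.781 for Tpsb2 and 0.686 for Cpa3. With 1 library per tissue, a gap of a few percent cannot be set against any spread between libraries.

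Over all sorted cells the picture also held the different shares of Cpa3-high cells. The YS-Ex level was 1.89 times (1.88 to 1.90) the Em-Ex level for Cpa3, 1.63 times (1.62 to 1.64) for Tpsb2, 1.23 times (1.22 to 1.24) for Cma1 and 1.2 times (1.18 to 1.22) for Mcpt4. Tpsab1 alone of the 5 was higher in Em-Ex, with a ratio of 1.93 (1.85 to 2.02). Of 7227 genes compared over all cells, 16.5% were 1.5-fold or more higher in Em-Ex, as was 1 of the 5, and 22.3% were 1.5-fold or more lower, as were 2 of the 5. Cma1 and Mcpt4 were thus lower in Em-Ex over all cells and higher within Cpa3-high cells.

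The ratios were also taken within clusters, a comparison added after the values had been seen. The clusters were built on other genes, with the 5 proteases left out, and 8 of the 12 held at least 30 Cpa3-high cells of each library. Tpsb2 was lower in Em-Ex in all 8, with ratios from 0.720 to 0.940. Cpa3 was lower in 7 and higher in 1, cluster 7, with ratios from 0.579 to 1.17. Cma1 was higher in 4 and lower in 3 beyond the counting interval, with ratios from 0.921 to 1.22. The lower ratios were 0.962, 0.963 and 0.921, in clusters 2, 6 and 7. Counting intervals leave out the spread between cells, so the direction of Cma1 in these clusters is not settled.

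Tpsab1 was higher in Em-Ex in 7 clusters by its counting interval, and in cluster 7, led by Mcpt1, Mcpt2 and Clec4a2, its ratio was 0.705 (0.417 to 1.22). Its ratio was 1.63, 2.08 and 1.77 in clusters 1, 2 and 3, and 5.56 and 6.01 in clusters 4 and 6. The Cpa3-high cells were spread differently over the clusters, with 545 and 181 in cluster 3 and 195 and 507 in cluster 4. The pooled ratio of 2.54 thus joins clusters of unequal ratios that the libraries filled unequally.

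Mcpt4 had the widest spread of ratios between clusters among the 5 genes. It was higher in Em-Ex in 3 of the 8 clusters and lower in 5, with ratios from 0.341 to 4.78. In cluster 7 it stood at 1365 and 3996 CPM. In cluster 6, led by Cd3g, Itga4 and Pdlim1, it stood at 111 and 23.2 CPM. Cluster 4, led by Layn, Ccr2 and Btg2, held 274 and 65.3 CPM. The pooled ratio of 1.14 thus joined clusters with opposite differences.

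**Figure D3:**
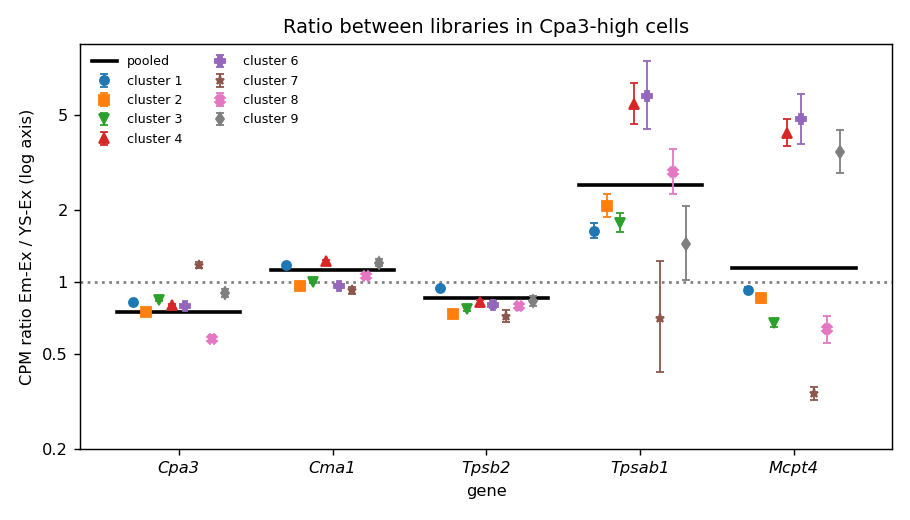
Ratio of pooled CPM, Em-Ex over YS-Ex, in Cpa3-high cells for each gene (log axis, dotted line at 1). Black bars are the pooled ratios and points are the 8 clusters with at least 30 Cpa3-high cells of each library, with 95% counting intervals; Mcpt4 spans 0.341 to 4.78 around its pooled 1.14, while Tpsb2 lies below 1 in every cluster shown.

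The 2 tryptases were set against each other as the share of Tpsab1 in their joint UMIs, again after the values had been seen. In Cpa3-high cells Tpsab1 gave 3.62% of tryptase UMIs in Em-Ex (exact 95% interval 3.54 to 3.70) and 1.24% in YS-Ex (1.2 to 1.29). In Em-Ex the share was smaller in cells with more Tpsb2, at 6.51% in cells with 10 to 50 Tpsb2 UMIs per 10,000 and 1.91% in cells with 200 or more. In YS-Ex it was 1.08% and 1.26% in the same ranges. The shares of the libraries were thus furthest apart in cells of low Tpsb2. Tpsb2 set both the ranges and the denominator, so these shares are a description.

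By cluster the Tpsab1 share ran from 1.32% in cluster 7 to 4.75% in cluster 2 in Em-Ex, and from 0.319% in cluster 4 to 2.01% in cluster 3 in YS-Ex. Cluster 2 was led by the cell cycle genes Esco2, Mki67 and Casc5. Cluster 3 was led by Hapln1, Tpsab1 itself and Pilra. Tpsg1, the membrane-anchored tryptase next to Tpsb2, stood at 1414 and 1036 CPM.

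Co-expression was read over single Cpa3-high cells, within each library, on levels log-normalized to 10,000 UMIs. The points share their library and sort and differ in depth, so the coefficients are descriptions. Cma1 and Tpsb2 were the closest pair of members, with Pearson r of 0.64 over 2200 Em-Ex cells and 0.69 over 1946 YS-Ex cells. The tryptases Tpsb2 and Tpsab1 followed in Em-Ex, with r of 0.49, and had r of 0.39 in YS-Ex. Cpa3 had r of 0.36 and 0.29 with Cma1 and of 0.29 and 0.32 with Tpsb2. With Tpsab1 and Mcpt4 it had r between -0.09 and 0.01. These coefficients hold within cells that were chosen by Cpa3, which cuts its range. Cells with 10 to 40 Cpa3 UMIs per 10,000 held 816 and 1398 CPM of Mcpt4 and 252 and 133 CPM of Tpsab1, against 1006 and 883 CPM and 266 and 105 CPM in Cpa3-high cells.

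Mcpt4 went with the mucosal proteases as well as with the connective tissue ones. Its r with Mcpt2 was 0.35 in Em-Ex and 0.50 in YS-Ex, and with Mcpt1 0.17 and 0.32. With Cma1, Tpsb2 and Tpsab1 its r was 0.26, 0.28 and 0.27 in Em-Ex and 0.32, 0.29 and 0.40 in YS-Ex. Cma1 and Tpsb2 had r of -0.30 and -0.32 with Mcpt1 in Em-Ex and of -0.06 each in YS-Ex. With Mcpt2 they had r of -0.16 and -0.15 in Em-Ex and of 0.05 each in YS-Ex, so the sign was not shared by the libraries. At 2000 UMIs per cell, r of Cma1 and Tpsb2 was 0.59 in Em-Ex and 0.63 in YS-Ex, and r of Tpsb2 and Tpsab1 was 0.37 and 0.25.

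**Figure D4:**
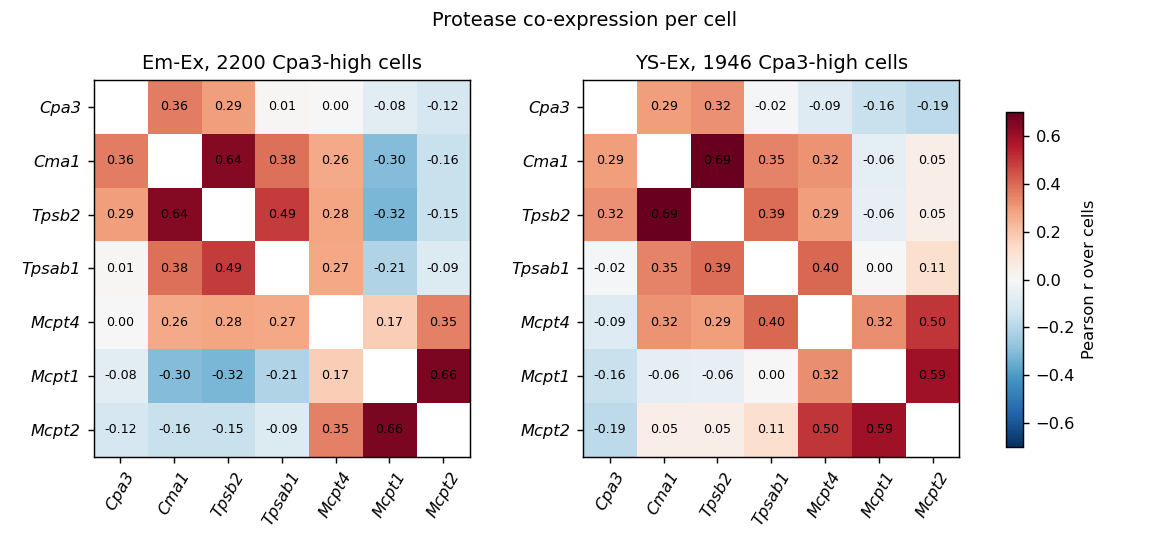
Pearson r over Cpa3-high cells of log-normalized levels, for the 5 genes and for Mcpt1 and Mcpt2, in 2200 Em-Ex cells (left) and 1946 YS-Ex cells (right), with color running from -0.7 (blue) to 0.7 (red). Cma1 with Tpsb2 is the strongest pair of members in each library, and Mcpt4 is positive both with the members Cma1, Tpsb2 and Tpsab1 and with Mcpt1 and Mcpt2.

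The combinations of proteases in a cell were counted with a level of 10 UMIs per 10,000 as the mark of a clearly expressed gene. Cma1 with Tpsb2, but without Tpsab1 or Mcpt4, was the most frequent combination beside Cpa3, in 46.5% of Em-Ex and 62.4% of YS-Ex Cpa3-high cells. Mcpt4 joined these genes in a further 21.5% and 19.3%. Cma1 was the only one of the 4 at that level in 15.2% and 9.66%. All 4 reached it in 3.50% of Em-Ex and 1.23% of YS-Ex cells, and none of them in 4.27% and 4.21%. The mast cell with carboxypeptidase, chymase and tryptase together was therefore the usual one in each library, and Mcpt4 divided these cells.

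Classes by Tpsb2 and Mcpt4, each at 10 UMIs per 10,000 and chosen after seeing the values, showed where the mucosal proteases lay. Cells with Tpsb2 and Mcpt4 made up 25.2% of Em-Ex and 20.7% of YS-Ex Cpa3-high cells and had the most Cma1, at 25185 and 23282 CPM, and the most Tpsab1, at 464 and 286 CPM. Cells with Tpsb2 and without Mcpt4, 51.1% and 64.6%, had 37.0 and 23.1 CPM of Mcpt1, the least of the 4 classes in Em-Ex. In YS-Ex their interval, 20.9 to 25.6 CPM, overlapped the 25.1 to 35.7 CPM of cells with neither gene. Cells with both genes held 388 and 564 CPM of Mcpt1 and 975.4 and 1288 CPM of Mcpt2, and in YS-Ex this was the highest Mcpt2 of the 4 classes.

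Cells with Mcpt4 and without Tpsb2 were rare, with 90 cells in Em-Ex and 16 in YS-Ex. In Em-Ex they held 4929 CPM of Mcpt1 and 4341 CPM of Mcpt2, and in YS-Ex 876 and 671 CPM. Cells with neither gene, 430 in Em-Ex and 270 in YS-Ex, had 1630 CPM of Mcpt1 in the first library but 30.1 CPM in the second. A minority of cells carried this, since of all 520 Em-Ex cells without Tpsb2 at that level 20.8% reached 10 Mcpt1 UMIs per 10,000. The class with the highest Mcpt2 was thus Mcpt4 without Tpsb2 in Em-Ex, and both genes together in YS-Ex. Of the cells with neither gene, 24.7% in Em-Ex and 13.3% in YS-Ex were dividing by the sum of cell cycle genes given below, and their median depths were 12833 and 15031 UMIs.

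**Figure D5:**
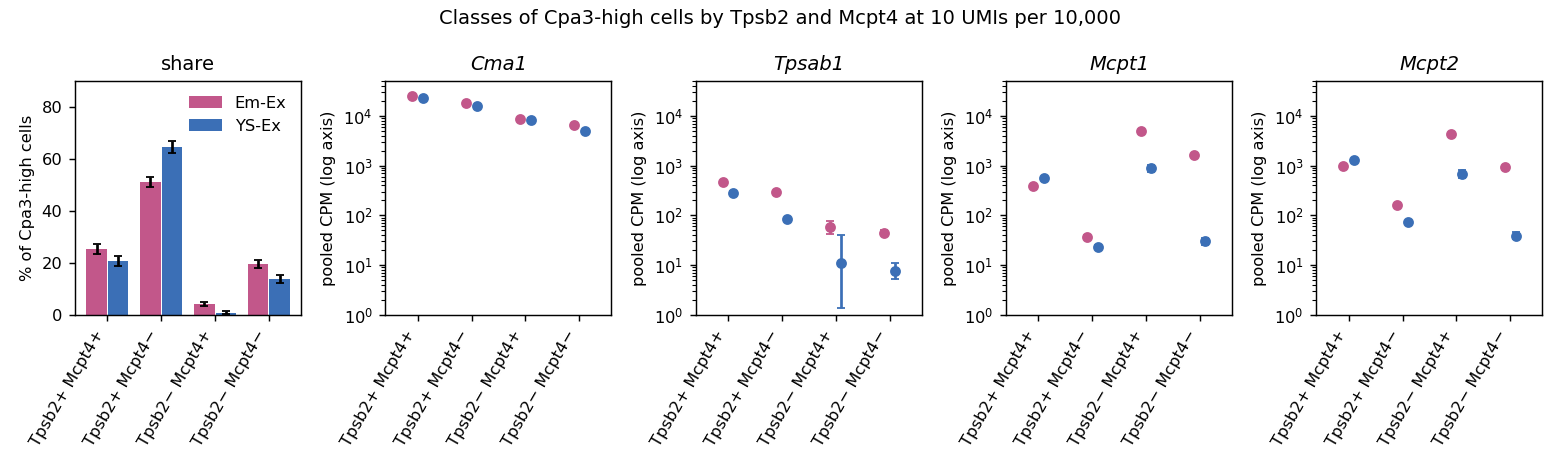
Cpa3-high cells classed by whether Tpsb2 and Mcpt4 reach 10 UMIs per 10,000. The left panel gives each class as a percentage of the library's Cpa3-high cells with exact 95% intervals, and the other panels give pooled CPM (log axis) of Cma1, Tpsab1, Mcpt1 and Mcpt2 with exact Poisson 95% intervals; the cells with neither gene hold 1630 CPM of Mcpt1 for Em-Ex against 30.1 CPM for YS-Ex.

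The genes most like each member over Cpa3-high cells were found among 1996 genes, by the mean r of the libraries. For Cpa3 they were Itm2b (0.49), Srgn (0.47), Cyp11a1 (0.44), Fcer1g (0.40) and Tyrobp (0.38). Srgn encodes the serglycin core protein and Fcer1g the gamma chain of the IgE receptor. For Cma1 they were Tpsb2 (0.67), Fcer1g (0.50), Fxyd5 (0.46), Ctla2a (0.45) and Ctsd (0.45), a lysosomal aspartic protease. For Tpsb2 they were Cma1 (0.67), Fcer1g (0.47), Itm2b (0.44), Ctsd (0.44) and Tpsab1 (0.44). Tpsab1 was closest to Ctla2a (0.46), then to Tpsb2 (0.44), Fxyd5 (0.39), Cma1 (0.37) and Syngr1 (0.37).

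Mcpt4 was closest to Mcpt2 (0.43), followed by Alox5ap (0.38), which serves leukotriene synthesis, Ctla2a (0.36), Ifitm2 (0.35) and Tpsab1 (0.33). Its neighbor on chromosome 14 thus ranked above the members Tpsab1, Cma1 and Tpsb2. Mcpt2 lies 14986 bases from Mcpt4 and shares much of its sequence, and the part of that likeness in this r was not tested.

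Over the 12 clusters of all cells, Cpa3, Cma1 and Tpsb2 were each highest in cluster 1, led by Igf2, Stmn2 and Dnm3, at 18974, 25226 and 13999 CPM over 1173 cells, and this held in each library. Pooled over the libraries, Tpsab1 was highest in cluster 3, at 356 CPM, and Mcpt4 in cluster 7, at 2114 CPM, but these peaks did not hold in each library. Tpsab1 had 397 CPM (384 to 412) in cluster 3 and 382 CPM (365 to 399) in cluster 1 in Em-Ex, and 227 and 229 CPM in YS-Ex, so the order of these clusters was within counting error. Mcpt4 was highest in cluster 1 in Em-Ex, at 1806 CPM against 1453 CPM in cluster 7. In YS-Ex it reached 4199 CPM in the 58 cells of cluster 7, against 2025 CPM in cluster 1. With 18 clusters, from a finer setting, the pooled Tpsab1 level shared its peak with Cma1 and Tpsb2, at 431 CPM, while Cpa3 peaked in another cluster. Without correction between libraries the pooled Mcpt4 peak was in the same cluster as that of Cpa3 and Tpsb2, at 2034 CPM, and Cma1 peaked in another cluster. The shared peak of the 3 abundant proteases thus did not hold under these settings. With 10 clusters, from a coarser setting, it did hold, in a cluster of 1559 cells.

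Cpa3, Cma1 and Tpsb2 were lowest in cluster 11, led by Actc1, Acta2 and Dcn, at 168, 285 and 126 CPM over 27 cells. In the Hoxa9, Mpo and BC035044 cluster, which held 483 Em-Ex and 18 YS-Ex cells, Em-Ex cells had 287 CPM of Cpa3, 444 CPM of Cma1, 174 CPM of Tpsb2, 32.7 CPM of Mcpt4 and 10.7 CPM of Tpsab1. These are the levels that the libraries show in cells led by genes of other lineages, and their source was not tested.

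Dividing cells, taken as Cpa3-high cells with 5 or more UMIs per 10,000 of Mki67, Top2a, Cdk1, Ccnb1 and Cenpf together, had less of each of the 5 proteases. They numbered 292 in Em-Ex, or 13.3%, and 194 in YS-Ex, or 9.97%. Tpsb2 had the lowest ratio of dividing to other cells, at 0.533 (0.526 to 0.541) in Em-Ex and 0.589 (0.580 to 0.597) in YS-Ex. Tpsab1 had the highest, at 0.750 and 0.844, and Cpa3 stood at 0.686 and 0.703. Mcpt4 had 0.565 in Em-Ex and 0.754 in YS-Ex, and Cma1 0.640 and 0.728. Dividing cells held a median of 17997 UMIs in Em-Ex and 20786 in YS-Ex, against 10560.5 and 11319.5 in the others, and the part of depth in these ratios was not tested.

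The proteases were set beside a list of 25 other genes of granule proteases and their handling, of which 22 were in the table and 18 reached 10 CPM in Cpa3-high cells of at least 1 library. Of the 18, 8 were 1.5-fold or more higher in Em-Ex, 3 were lower and 7 lay between, where 8.49% of all genes compared were higher and 24.2% lower. The median log2 ratio of the 18 was 0.43, against -0.03 for all genes compared.

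Of the 8 higher genes, 7 encode proteases, as do most genes of the list, so this count says little about proteases. The mucosal proteases Mcpt1 and Mcpt2 had pooled ratios of 5.11 (4.91 to 5.31) and 2.30 (2.23 to 2.36). Among the 8 clusters compared above, Mcpt1 was higher in Em-Ex in 7 by its counting interval, with ratios from 1.12 to 36.6. Mcpt2 was higher in 6 and lower in 2, with ratios from 0.714 to 16.1. In cluster 7, with 161 Em-Ex and 52 YS-Ex Cpa3-high cells, the ratios were 1.82 for Mcpt1 and 0.864 for Mcpt2. The pooled ratio of Mcpt2 thus joined clusters with opposite differences. The basophil protease Mcpt8, at 126 and 36.8 CPM, had a pooled ratio of 3.43, and granzyme B (Gzmb) a pooled ratio of 1.76. The cathepsins Ctsb, Ctsd and Ctsc, of which Ctsc activates granule serine proteases, had ratios of 1.73, 1.73 and 1.59, and the protease inhibitor Serpinb1a had 1.59. Tpsg1 (1.36), Cma2 (1.18) and Prss34 (0.762) lay within 1.5-fold, and Ctsg, at 0.767 CPM in Em-Ex and listed at 0 in YS-Ex, was under 10 CPM.

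The 3 lower genes were Ndst2, Ndst1 and Slc18a2. Ndst2, which sulfates heparin in the mast cell granule, stood at 84.3 and 143 CPM, a ratio of 0.591. Ndst1, at 7.05 and 14.9 CPM with a ratio of 0.472, reached 10 CPM only in YS-Ex, where it was higher. Its place among the genes compared, and so in the count of 3 lower genes, rests on that library alone. Slc18a2, the vesicular monoamine transporter, had a ratio of 0.615. Other genes that serve what is stored with the proteases lay within 1.5-fold, with ratios of 1.34 for Hdc, which makes histamine, 0.873 for Tph1, which serves serotonin synthesis, and 0.700 for Hs2st1, a heparan sulfotransferase. Srgn was abundant in both libraries, at 4591 and 3885 CPM, with a ratio of 1.18.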

How the data were processed

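UMI counts per gene and barcode were made by the authors with Cell Ranger 2.0.1 after bcl2fastq 2.19.1.403 (mm10, per the submitters' processing notes), and these raw counts were deposited for both libraries in 1 table. No gene of a library was above 0 with fewer than 30 barcodes holding its UMIs, so a gene found in fewer is listed at 0. The gene annotation is not given in the sources used here. Of 3504 Em-Ex and 3037 YS-Ex barcodes, cells with 1000 to 5000 genes and at most 5% mitochondrial UMIs were kept, as the methods state. The study's figure legend counts 3504 and 3037 cells, the same as the barcodes before this filter, so the cells used here are fewer. No doublet caller was run beyond the limit of 5000 genes. Cells kept had 4120 to 38114 UMIs in Em-Ex, with 3302 to 34107 in YS-Ex. The libraries shared 35 barcode sequences, in 33 Em-Ex and 32 YS-Ex cells kept.

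Levels were pooled UMIs per 1000000 (CPM) with exact Poisson 95% intervals, shares had Clopper-Pearson 95% intervals and ratios had exact counting intervals. Clusters came from leidenalg 0.10.2 (resolution 1, 20 neighbors) on 2000 variable genes without the 5 proteases, in 100 principal components, after mutual nearest neighbor correction (k = 20, sigma = 0.1) written in numpy 2.4.6. It stands in for scran and pdfCluster, and rebuilt clusters can differ from those of the study. Sequences were aligned with Biopython. Computations were tested on simulated data. The named genes were the members, a granule gene list, the 5 genes most correlated with each member at 50 CPM or more in both libraries, cell type markers, cell cycle genes and the 3 leading genes of a cluster. The members, lists and limits were chosen with earlier results of these data known. Alternatives were other cell filters, Cpa3 limits of 20 and 80, other scalings, thinning to 2000 UMIs, a depth range, and leaving out dividing cells or shared barcodes. The erythroid marker list and 1 cluster are not reported here.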

Additional observations from a re-analysis of the deposited data

How the results depend on the processing

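No ratio between Em-Ex and YS-Ex within Cpa3-high cells turned direction under the alternatives below, and their sizes moved by more than counting error in many, of which the cause was not tested. Ratios are given for Cpa3, Cma1, Tpsb2, Tpsab1 and Mcpt4 in that order, without the values that moved by less than counting error. Without a cell filter they were 0.764, 1.11, 0.829 and, for Mcpt4, 1.19, and with a mitochondrial limit of 10% the first 3 were 0.756, 1.10 and 0.819. With a Cpa3 limit of 20 they were 0.705, 1.08, 0.812 and, for Mcpt4, 1.09, and the Cpa3-high cells made up 79.1% of Em-Ex and 96.7% of YS-Ex. With a limit of 80 they were 0.865, 1.25, 0.958, 2.80 and 1.22, and the cells made up 50.4% and 81.7%. Scaling to the median gene gave 0.686, 1.03, 0.781, 2.33 and 1.04. As means over cells, Cpa3, Cma1 and Tpsab1 had 0.783, 1.10 and 2.23, and with each cell thinned to 2000 UMIs they had 0.785, 1.10 and 2.33. With the 5 genes left out of the total, Cpa3 and Cma1 had 0.742 and 1.11. In cells of 8000 to 16000 UMIs the first 4 ratios were 0.766, 1.09, 0.803 and 2.32, and Cpa3-high cells made up 79.9% and 96.2%. Without dividing cells Cpa3, Cma1, Tpsb2 and Mcpt4 had 0.759, 1.15, 0.876 and 1.2, with shares of 78.2% and 94.8%. Without cells whose barcode occurred in both libraries, no ratio or share moved beyond counting error.

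Of genes with at least 50 CPM, 230 were higher in Em-Ex and 480 lower by 1.5-fold in Cpa3-high cells, and 437 and 506 over all cells. With no filter on low values the counts were 1583 and 3078, and 2358 and 2767.

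No paired analysis was possible because each tissue has 1 library. No library was left out for the same reason, and there is no spread between libraries to set a difference against. Of the coefficients between pairs of the 5 genes, with cells thinned to 2000 UMIs or held to 8000 to 16000 UMIs, 10 moved by more than the 95% interval of r over cells and 30 did not. Shares of cells with a Tpsab1 or Mcpt4 UMI depend on depth.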
